A study of Mus musculus with 6 samples.

Results

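The 10 genes described here encode brakes on MAP kinase signalling: the dual-specificity phosphatases Dusp1, Dusp2, Dusp4, Dusp5, Dusp6 and Dusp16, and the RAS pathway inhibitors Spry1, Spry2, Spred1 and Spred2. They were chosen by gene symbol, and all 10 were found among the 25124 genes listed. Of the 9 tested, 8 changed in IL-4-treated macrophages: Dusp2 and Dusp4 rose, while Dusp1, Dusp5, Dusp6, Dusp16, Spry2 and Spred2 fell. Over all 11202 tested genes 43.7% changed, 20.1% upward and 23.7% downward. Spred1 did not pass the test, and Spry1 was too low to be tested. The largest falls left Dusp5 at 33.5%, Dusp1 at 36.2% and Dusp6 at 41.5% of their mean level without IL-4.

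The cells were RAW264.7, a mouse macrophage-like line, in a control version made with a Cas9 plasmid that carried no guide RNA, as counterpart to an E4BP4 knockout. M2 cells received IL-4 at 10 ng/ml and M0 cells received none, with 3 libraries of poly(A) RNA in each group. All were kept in medium with 25 mM glucose, 10% fetal bovine serum and penicillin-streptomycin, below passage 15. How long IL-4 was given is not stated in the labels. No label says whether the replicates were separate cultures or whether the control line is a single clone, so p-values measure the spread between these libraries, which may be technical. The M0 libraries, but not the M2 libraries, are marked as a re-analysis, and any batch behind that mark cannot be told apart from IL-4.

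MAP kinases (ERK, JNK and p38) are switched on by phosphorylation of a threonine and a tyrosine, and the typical dual-specificity phosphatases switch them off by removing both. Some of these phosphatases are inducible and nuclear (Dusp1, Dusp2, Dusp4, Dusp5), others are cytoplasmic and prefer ERK (Dusp6, Dusp7, Dusp9), and a further group acts on JNK and p38 (Dusp8, Dusp10, Dusp16). Sprouty and Spred proteins act higher up, between growth factor receptors and RAF, and Spred proteins bring the RAS-inactivating protein neurofibromin to the membrane. Many of these genes are themselves transcribed in response to MAP kinase activity, which makes them negative feedback genes. In macrophages Dusp1 is known for limiting p38 and JNK activity, and with it cytokine production, after Toll-like receptor stimulation.

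Expression was given as TPM, a transcript level scaled for transcript length and library size. Reads worked back from TPM numbered between 18139902 and 19511192 per M2 library and between 15615639 and 18110568 per M0 library. The 8 macrophage markers, among them Csf1r, Cd68 and Lyz2, were all expressed, at a summed 2431 to 2535 TPM in M2 libraries and 2962 to 3185 TPM in M0 libraries. Of these, Adgre1 rose and Itgam, Ptprc and Cd14 fell, and their part in the results was not tested. Summed markers of T cells, fibroblasts, epithelium and endothelium (3 or 4 genes each) reached at most 0.808 TPM in M2 libraries and 1.06 TPM in M0 libraries, with Cd8a and Krt8 at 0 reads. The neutrophil markers summed to 4.12 to 5.69 TPM in M2 libraries and 4.51 to 5.85 TPM in M0 libraries. Of the markers of IL-4 polarization, Mgl2 was at 183 TPM in M2 and 44.4 TPM in M0. Arg1, at 15.3 TPM in M2 and 0.174 TPM in M0, Mrc1, at 4.43 TPM in M2 and 0.321 TPM in M0, and Socs1, at 46.4 TPM in M2 and 1.09 TPM in M0, passed the filter on low values only with their M2 libraries. M2 replicate 3 stood apart in the reads worked back from TPM. Chi-square per degree of freedom was 19.6 against each other M2 library and 5.46 between M2 replicates 1 and 2. Pairs of M0 libraries gave 2.18 to 5.73. The deviation of M2 replicate 3 from the M2 mean ran against transcript length (Spearman rho -0.61 over 11202 genes). M2 replicates 1 and 2 gave 0.33 and 0.56, and M0 replicates gave -0.42, 0.44 and 0.03. Such deviations cancel out within a group, so opposite signs are partly built in. Results are also given without M2 replicate 3.

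Among the nuclear phosphatases, Dusp4 and Dusp2 rose and Dusp1 and Dusp5 fell. Calls rest on limma applied to log2(TPM + 1), with Benjamini-Hochberg adjusted p under 0.05 over the 11202 genes that reached 1 TPM in at least 3 libraries. By that rule 43.7% of all tested genes changed, 20.1% upward and 23.7% downward, against which the 2 rises and 6 falls among 9 tested genes are to be read. The median log2 fold change of those 9 was -0.70, and that of all tested genes was -0.03. The added 1 shrinks the fold changes of weakly expressed genes. Among the 9 tested genes the groups did not overlap for 8, 2 higher and 6 lower in M2, where 55.9% of all tested genes did not overlap, 25.1% higher and 30.8% lower. In RNA from whole cultures, a change in the number of expressing cells and a change in RNA per cell cannot be told apart.

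Dusp4, whose product acts on ERK and JNK in the nucleus, was by far the most abundant of the 10 transcripts. It stood at 238, 232 and 186 TPM in M2 replicates 1, 2 and 3, against 146, 161 and 161 TPM in M0 replicates 1, 2 and 3. Every M2 library lay above every M0 library, with M2 replicate 3 the closest to the M0 group. The mean was 218 ± 28.6 TPM in M2 and 156 ± 8.50 TPM in M0 (SD, n = 3 each), a rise of 1.40-fold resting on 25184 reads in M2 and 16638 in M0. On the log2 scale the difference was 0.47 (SE 0.094, limma adjusted p = 0.00373), and 0.59 without M2 replicate 3. Its level exceeded that of 95.6% of tested genes.

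Dusp2, an inducible phosphatase known from activated immune cells, was the other gene that rose, at a far lower level than Dusp4. Its TPM was 5.56, 5.64 and 6.53 in the M2 libraries, against 3.27, 3.56 and 3.65 in the M0 libraries. The groups did not overlap, and the ratio of means was 1.69. The log2 fold change was 0.62 (SE 0.095, limma adjusted p = 0.00100) and 0.56 without M2 replicate 3. The rise rested on 459 reads over the M2 libraries and 248 over the M0 libraries.

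Dusp1, the immediate early phosphatase of p38 and JNK, measured 8.59, 7.48 and 7.04 TPM in the M2 libraries, against 21.9, 21.4 and 20.5 TPM in the M0 libraries. The libraries of each group lay close together, and the highest M2 library was far below the lowest M0 library. Mean levels were 7.70 ± 0.803 TPM in M2 and 21.3 ± 0.717 TPM in M0 (SD, n = 3 each), 2.76-fold lower with IL-4. The log2 fold change was -1.36 (SE 0.085, limma adjusted p = 9.29e-06) and -1.30 without M2 replicate 3. Only 39 of the 11202 tested genes fell further on this scale.

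Dusp5, the nuclear phosphatase specific to ERK, fell by about as much as Dusp1. It had 4.14, 3.71 and 2.38 TPM in the M2 libraries, against 11.2, 9.59 and 9.68 TPM in the M0 libraries. M2 replicate 3 was the lowest of all 6 libraries, and no M2 library came near the M0 range. The level was 2.98-fold lower in M2, with a log2 fold change of -1.36 (SE 0.15, limma adjusted p = 1.93e-04) and of -1.18 without M2 replicate 3. GENCODE M21 places an antisense gene, AC137853.2, over Dusp5. No source used here says whether counting used strand, so reads of this pair cannot be told apart.

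**Figure D1:**
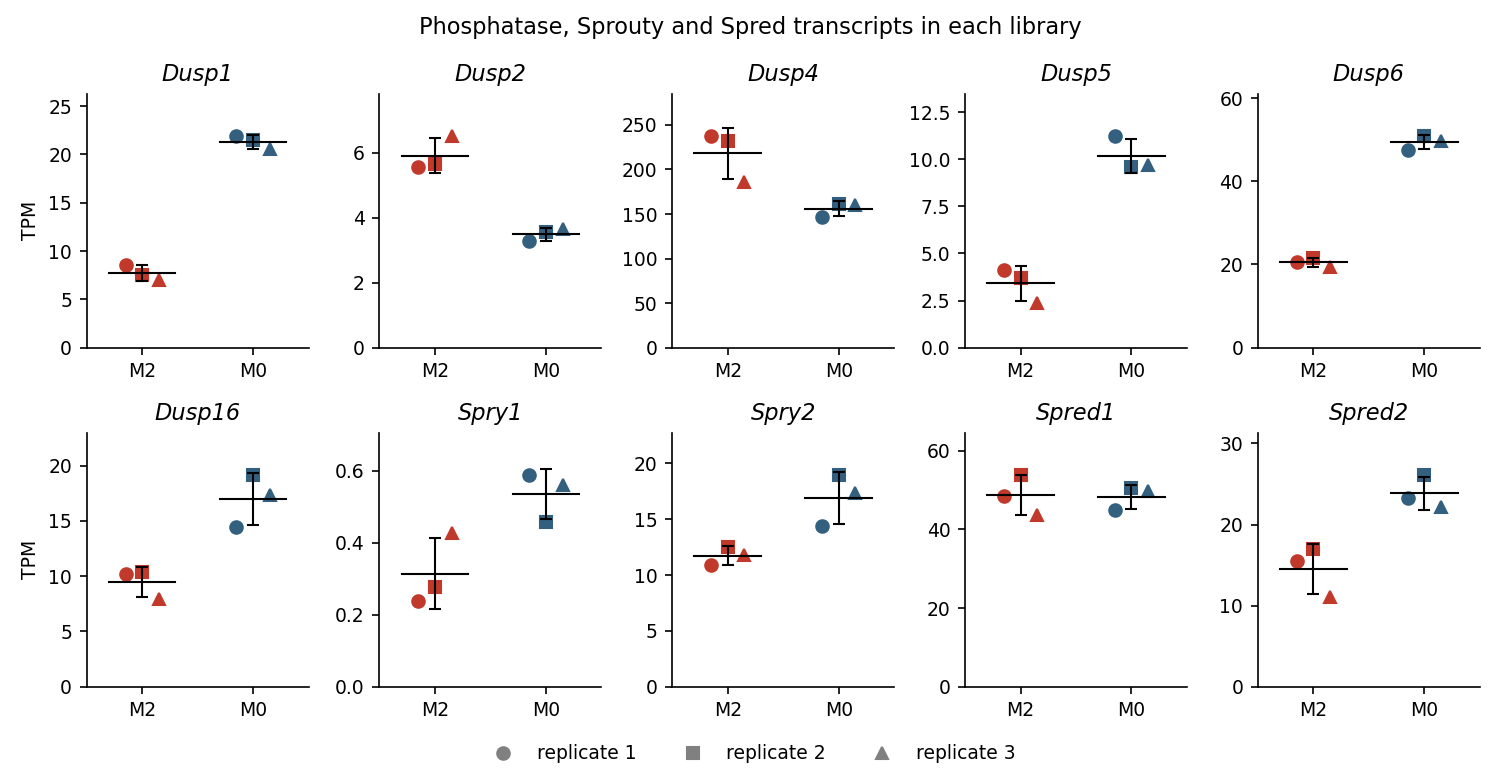
TPM (vertical axes, each from 0) of the 10 genes in the 3 M2 libraries (left in each panel) and the 3 M0 libraries (right), with symbols for replicate number, horizontal lines for means and bars for SD. The groups are apart for each gene drawn except Spred1, where M2 libraries at 43.7 to 53.9 TPM span the M0 libraries at 44.9 to 50.5 TPM.

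Dusp6, the cytoplasmic phosphatase of ERK and a standard transcript readout of ERK activity, fell with the smallest standard error of the 9 tested genes. Its TPM was 20.6, 21.5 and 19.4 in the M2 libraries, against 47.5, 50.9 and 49.8 in the M0 libraries. The libraries of each group lay close together and the groups were far apart. Means were 20.5 ± 1.08 TPM in M2 and 49.4 ± 1.73 TPM in M0 (SD, n = 3 each), or 2.41-fold lower in M2. The log2 fold change was -1.23 (SE 0.064, limma adjusted p = 3.39e-06), and -1.19 without M2 replicate 3.

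Dusp16, which acts on JNK and moves between cytoplasm and nucleus, was also lower. Levels were 10.1, 10.4 and 7.95 TPM in the M2 libraries, against 14.5, 19.2 and 17.4 TPM in the M0 libraries. The groups did not overlap, and M0 replicate 1 was the closest to the M2 libraries. The level was 1.79-fold lower in M2, with a log2 fold change of -0.78 (SE 0.12, limma adjusted p = 0.00126) and of -0.67 without M2 replicate 3. Dusp16 also has an antisense gene, Gm36328, with the same limit on strand.

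In this small set, location in the cell did not sort the rises from the falls, and so few genes cannot show whether it matters. Of the 4 nuclear phosphatases, 2 rose and 2 fell, where 20.1% of all tested genes rose and 23.7% fell. Summed over these 4 genes the level was 256, 249 and 201 TPM in the M2 libraries, against 183, 196 and 194 TPM in the M0 libraries. That sum was led by Dusp4: without it the other nuclear phosphatases summed to 18.3, 16.8 and 15.9 TPM in M2, against 36.4, 34.6 and 33.8 TPM in M0. The 3 genes without Dusp4 thus had a mean sum 2.05-fold lower in M2. The nuclear sum was 10.4 to 12.4 times the Dusp6 level in M2 libraries and 3.84 to 3.90 times that level in M0 libraries, and without Dusp4 it was 0.782 to 0.887 times in M2 and 0.679 to 0.766 times in M0. Dusp6 is the only cytoplasmic phosphatase of the set. Dusp7, also cytoplasmic, rose from a mean of 29.1 TPM in M0 to 39.4 TPM in M2. It was left out of these ratios, as was Dusp9. Ratios to Dusp6 therefore do not describe cytoplasmic phosphatases as a class. These sums and ratios are descriptions with no test.

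The rest of the typical phosphatase family also went both ways. Of these 4 genes, all tested, 1 rose and 2 fell, where 20.1% of all tested genes rose and 23.7% fell. Dusp7, a cytoplasmic ERK phosphatase like Dusp6, rose to 40.2, 41.5 and 36.5 TPM in M2 libraries, against 29.5, 27.7 and 30.1 TPM in M0 libraries (log2 fold change 0.42, SE 0.069, limma adjusted p = 0.00133). Dusp9, the third of that class, had 5.94, 5.82 and 4.78 TPM in M2 and 4.81, 5.68 and 4.68 TPM in M0, groups that overlap, and did not pass (log2 fold change 0.10, 95% confidence interval -0.14 to 0.35). Both JNK and p38 phosphatases outside the set, Dusp8 and Dusp10, fell. Dusp8 was at 1.006, 0.911 and 1.11 TPM in M2, against 3.59, 3.95 and 3.78 TPM in M0, 3.74-fold lower, and Dusp10 at 1.27, 1.84 and 1.59 TPM in M2, against 3.88, 3.81 and 3.52 TPM in M0, 2.39-fold lower (limma adjusted p = 2.68e-05 for Dusp8 and 3.24e-04 for Dusp10). Dusp8 passed the filter only with its M0 libraries, where it was high.

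**Figure D2:**
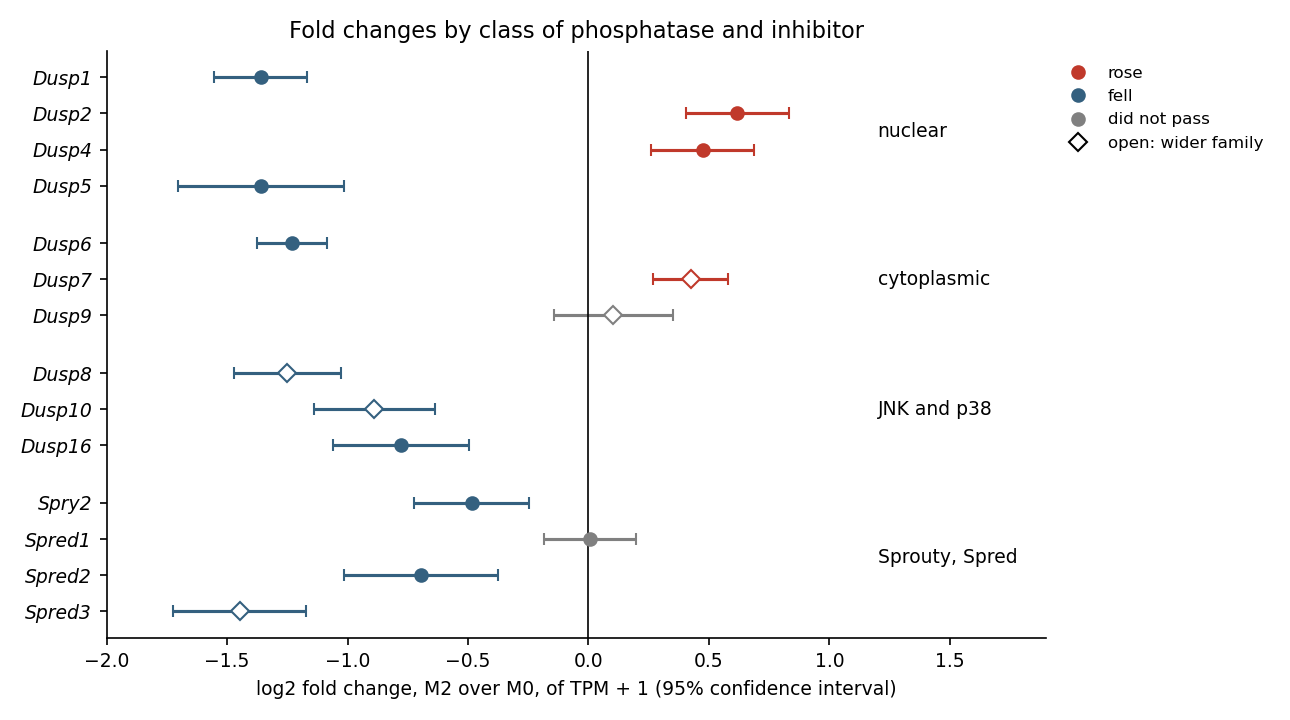
Log2 fold change of M2 over M0 on TPM + 1 (horizontal axis) with its 95% confidence interval from limma, for 14 tested phosphatase, Sprouty and Spred genes grouped by class. Filled circles are the genes chosen for description and open diamonds the wider family. Rises and falls stand side by side among nuclear genes and among cytoplasmic genes. Dusp8, Dusp10 and Dusp16 all lie left of 0, where 23.7% of all tested genes fell. Dusp8 passed the filter only with its M0 libraries.

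The make-up of the phosphatase transcripts differed between M2 and M0 while their total did not separate the groups. Over the 10 typical phosphatases the summed level was 335, 331 and 273 TPM in M2 libraries, against 286, 307 and 304 TPM in M0 libraries, with M2 replicate 3 below all M0 libraries. Dusp4 made up 68.0% to 70.9% of that sum in M2 libraries and 51.0% to 52.9% in M0 libraries. Dusp6 held 6.15% to 7.10% in M2 and 16.4% to 16.6% in M0, and Dusp1 2.26% to 2.58% in M2 and 6.76% to 7.65% in M0. Dusp4 transcripts outnumbered those of Dusp1 26.4 to 31.0 times in M2 libraries and 6.67 to 7.83 times in M0 libraries. These shares are descriptions of transcript levels, and protein was not measured.

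**Figure D3:**
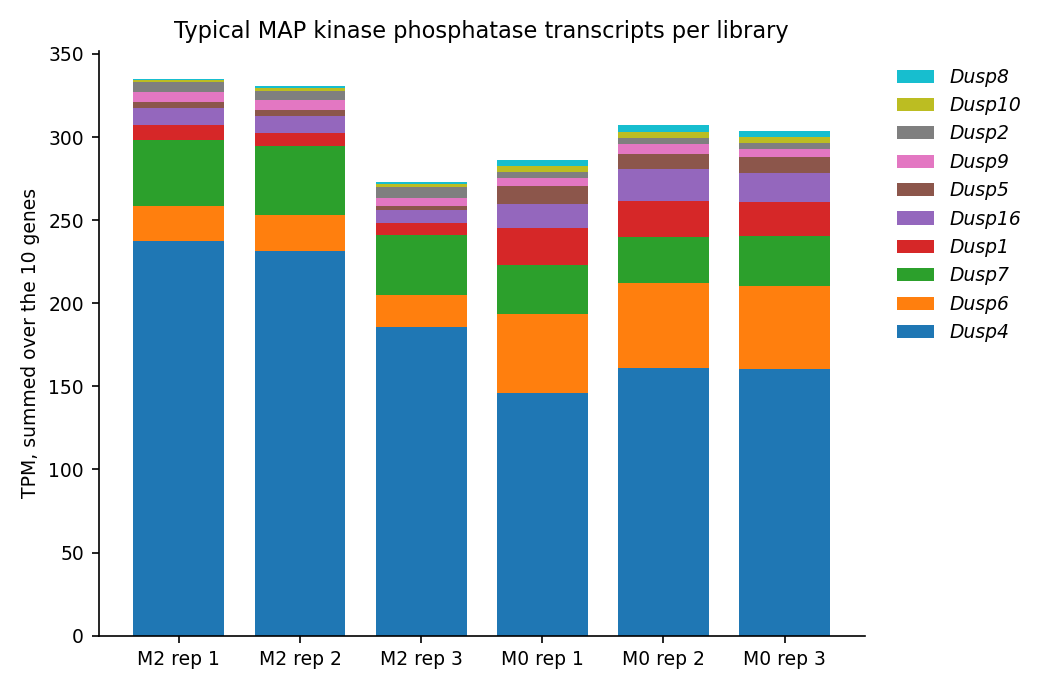
Stacked TPM (vertical axis) of the 10 typical MAP kinase phosphatase genes in each of the 3 M2 libraries (left) and 3 M0 libraries (right). The Dusp4 segment is 186 to 238 TPM in M2 and 146 to 161 TPM in M0, the Dusp6 segment 19.4 to 21.5 TPM in M2 and 47.5 to 50.9 TPM in M0, and the total of M2 replicate 3 is the lowest of the 6 bars.

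Sprouty and Spred transcripts were lower or level. Spry2, an inhibitor of receptor tyrosine kinase signalling to RAS, had 10.9, 12.5 and 11.8 TPM in the M2 libraries, against 14.4, 19.0 and 17.4 TPM in the M0 libraries. The groups did not overlap, but M0 replicate 1 was near the M2 libraries. The fall was the smallest of the 6, at 1.44-fold (log2 fold change -0.49, SE 0.10, limma adjusted p = 0.00557), and the log2 fold change was also -0.49 without M2 replicate 3. Spry1, its close relative, was barely expressed, with 0.239, 0.277 and 0.426 TPM in M2 and 0.588, 0.458 and 0.559 TPM in M0. These values stand for 33 reads over the M2 libraries and 51 over the M0 libraries, and Gm42922, a gene on the opposite strand, overlaps Spry1 with the same limit on strand. Without the filter on low values the difference did not pass (log2 fold change -0.23, SE 0.067, limma adjusted p = 0.0572).

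Spred2, an inhibitor of the RAS to RAF step, fell, while Spred1, which acts at the same step, did not pass the test. Spred2 had 15.537, 16.997 and 11.038 TPM in the M2 libraries, against 23.2, 26.1 and 22.2 TPM in the M0 libraries, with M2 replicate 3 below the other M2 libraries and no overlap between the groups. It was 1.64-fold lower in M2 (log2 fold change -0.70, SE 0.14, limma adjusted p = 0.00408) and its log2 fold change was -0.52 without M2 replicate 3. Spred1 had 48.6, 53.9 and 43.7 TPM in M2 and 44.9, 50.5 and 49.7 TPM in M0, with fully overlapping groups. Its log2 fold change of 0.01 had a 95% confidence interval of -0.18 to 0.20, from 14665 reads in M2 and 13438 in M0. The ratio of Spred1 to Spred2 was 3.13 to 3.96 in M2 libraries and 1.93 to 2.24 in M0 libraries.

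Of the relatives outside the set, Spred3 averaged 0.925 ± 0.272 TPM in M2 and 4.22 ± 0.0976 TPM in M0 (SD, n = 3 each), 4.56-fold lower with IL-4 (limma adjusted p = 4.15e-05). It reached the filter of 3 libraries only through its M0 level. Spry4 was near the limit of detection, at 14 reads in M2 and 27 in M0, and Spry3 had 0 reads in either group. Ordered by TPM in M2 cells, Dusp4 was followed by Spred1, Dusp6, Spred2, Spry2, Dusp16, Dusp1, Dusp2, Dusp5 and Spry1. In M0 cells the order was Dusp4, Dusp6, Spred1, Spred2, Dusp1, Dusp16, Spry2, Dusp5, Dusp2 and Spry1. Neighbours in that order whose library values overlapped were Spred2 with Spry2 and Dusp16 with Dusp1 in M2, and Dusp6 with Spred1 and Dusp16 with Spry2 in M0; the other neighbours did not overlap.

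The promoters were compared for motifs of factors that act below MAP kinases, cyclic AMP and IL-4. RefSeq promoter sequence on GRCm38, the assembly also called mm10, was matched for 9 of the 10 genes; Dusp4 was not among them. The 250 bases before the start site were searched on both strands, and 4 genes are shown because they include the 3 largest falls and the rise that has a matched promoter. Capitals mark the cyclic AMP response element TGACGTCA, its shorter core TGACG on either strand, and the CArG box bound by serum response factor. The Dusp6 and Dusp2 windows hold none of these. The windows lie at chr17:26508473-26508722 (minus strand) for Dusp1, chr19:53528895-53529144 (plus) for Dusp5, chr10:99262981-99263230 (plus) for Dusp6 and chr2:127335909-127336158 (plus) for Dusp2.
Dusp1: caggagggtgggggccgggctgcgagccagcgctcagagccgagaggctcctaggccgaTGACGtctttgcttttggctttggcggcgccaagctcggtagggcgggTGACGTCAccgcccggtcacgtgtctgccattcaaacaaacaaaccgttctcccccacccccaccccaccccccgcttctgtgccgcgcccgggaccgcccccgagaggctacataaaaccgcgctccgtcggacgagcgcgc
Dusp5: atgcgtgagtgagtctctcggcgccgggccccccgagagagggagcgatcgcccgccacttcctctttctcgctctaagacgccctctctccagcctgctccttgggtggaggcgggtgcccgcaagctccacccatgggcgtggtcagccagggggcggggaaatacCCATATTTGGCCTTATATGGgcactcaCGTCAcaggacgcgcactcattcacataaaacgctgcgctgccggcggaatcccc
Dusp6: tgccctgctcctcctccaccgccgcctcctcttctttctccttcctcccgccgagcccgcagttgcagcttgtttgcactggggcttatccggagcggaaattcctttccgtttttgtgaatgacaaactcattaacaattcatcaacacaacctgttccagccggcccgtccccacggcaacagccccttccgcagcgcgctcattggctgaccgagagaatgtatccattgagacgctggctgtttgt
Dusp2: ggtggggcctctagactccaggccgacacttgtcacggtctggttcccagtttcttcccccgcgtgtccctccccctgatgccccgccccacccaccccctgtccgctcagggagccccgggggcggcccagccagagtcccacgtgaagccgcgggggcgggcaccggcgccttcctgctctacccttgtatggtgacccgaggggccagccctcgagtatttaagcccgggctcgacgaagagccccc

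Dusp1 alone of the 9 held the whole cyclic AMP response element, 143 to 136 bases before the start, a sequence found in 1.55% of the 32851 promoter windows. Of its 3 cores, 2 lie inside that element and the other 191 to 187 bases before the start. Dusp5 alone held CArG boxes, in a pair that adjoin at 82 to 73 and 72 to 63 bases before the start, where 1.47% of all windows hold such a box. The core was also in Dusp5, Dusp16 and Spred2, and is in 17.8% of windows. None of the 9 windows held the AP-1 motif TGANTCA (6.75% of windows) or the STAT motifs TTCNNNGAA (7.02%) and TTCNNNNGAA (5.85%), or the ETS motif CCGGAA (12% of windows). The GC box GGGCGG was in 7 of 9 windows (32.7% of all) and the EGR motif GCGNGGGCG in those of Dusp2 and Dusp16 (4.7% of all). These are matches of letters within these windows and say nothing of binding.

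Immediate early transcripts often carry AU-rich elements, which recruit RNA decay factors, in the 3′ untranslated region. The pentamer ATTTA (written as DNA) was counted in that region of GENCODE M21 transcripts matched to the models of all 10 genes and of 9605 tested genes, with a median of 1.23 per 1000 bases among those tested genes. Dusp2 held 6.89 and Dusp1 5.80 per 1000 bases, above 96.8% and 95.2% of tested genes. One of these genes rose and the other fell. Dusp1 was the single gene of the 10 with the nonamer TTATTTATT, present in 7.07% of tested genes, and held it in 2 places, shown with 8 bases on either side.
Dusp1 first element: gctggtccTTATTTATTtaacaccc
Dusp1 second element: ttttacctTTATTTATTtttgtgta

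Outside the families of the 10 genes, the median log2 fold changes of the pathway lists lay between -0.42 and 0.14. Across 10 lists with 120 genes (the wider phosphatase, Sprouty and Spred families included), 89 were tested, of which 12 rose, 30 fell and 47 did not pass, with a median log2 fold change of -0.16. Over all tested genes 43.7% were called, 20.1% rising and 23.7% falling. Only the total of 42 called of 89 is near that background. Falls made up more of the calls in the lists than over all tested genes, a difference that was not tested. In the RAS and ERK cascade, 1 of 10 tested genes rose and 2 fell, where 20.1% of all tested genes rose and 23.7% fell. Hras rose (45.9 TPM in M2, 37.3 TPM in M0), while Mapk3, one of the ERK kinases, fell (58.9 TPM in M2, 93.6 TPM in M0) together with Map2k1, its activator (80.5 TPM in M2, 106 TPM in M0). The median of that list was -0.09.

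Among adaptors and exchange factors that load RAS, 0 of 10 tested genes rose and 4 fell, which is 4 called where 43.7% of all tested genes were called. These were Grb2, at 65.5 TPM in M2 and 96.6 TPM in M0, Shc1, at 34.3 TPM in M2 and 47.4 TPM in M0, Gab2, at 10.5 TPM in M2 and 14.6 TPM in M0, and Gab3, at 1.05 TPM in M2 and 1.75 TPM in M0, which passed the filter only with its M0 libraries. The Gab3 log2 fold change of -0.43 was -0.69 with a pseudocount of 0.1, -0.70 on recovered reads and -0.17 on the authors' log2-scale values. Gab2 no longer passed without M0 replicate 2 (limma adjusted p = 0.0588) or M0 replicate 3 (0.0503). Of 9 tested RAS GTPase-activating proteins, which switch RAS off, 1 rose and 2 fell (20.1% and 23.7% of all tested genes). Rasa1 rose, at 48.0 TPM in M2 and 28.1 TPM in M0. Rasa4 fell, at 8.57 TPM in M2 and 23.2 TPM in M0 (log2 fold change -1.34, limma adjusted p = 6.95e-06), and Dab2ip fell, at 1.99 TPM in M2 and 3.40 TPM in M0. Nf1, the neurofibromin gene through which Spred proteins act, had 4.36 ± 1.06 TPM in M2 and 5.53 ± 0.405 TPM in M0 (SD, n = 3 each) and did not pass (limma adjusted p = 0.127).

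In the JNK and p38 cascade 2 of 18 tested genes rose and 5 fell, against 20.1% rising and 23.7% falling over all tested genes. Map2k4 and Map2k3 rose, to 28.0 and 55.7 TPM in M2, against 19.9 and 46.6 TPM in M0. Map2k3 did not pass without M0 replicate 1 (limma adjusted p = 0.0586). The falls were all in Map3k genes: Map3k20 (21.8 TPM in M2, 42.2 TPM in M0), Map3k1 (12.7 TPM in M2, 22.7 TPM in M0), Map3k11 (21.8 TPM in M2, 32.1 TPM in M0), Map3k3 (19.0 TPM in M2, 28.6 TPM in M0) and Map3k5 (2.08 TPM in M2, 3.53 TPM in M0). The other tested Map3k genes did not pass. Mapk14, the main p38 kinase of macrophages, had 73.5 ± 6.20 TPM in M2 and 82.3 ± 2.96 TPM in M0 (SD, n = 3 each) and did not pass (limma adjusted p = 0.0884), although each M2 library lay below each M0 library. Below the MAP kinases, 1 of 10 tested kinases rose and 6 fell, against 20.1% rising and 23.7% falling over all tested genes. Rps6ka2, among the 6, passed the filter only with its M0 libraries, at 1.42 TPM in M2 and 2.78 TPM in M0. Mapkapk3 rose to 34.8 TPM in M2, against 20.8 TPM in M0, and Mapkapk2, its abundant relative, fell to 154 TPM in M2, against 214 TPM in M0. Rps6ka1 fell to 38.1 TPM in M2, against 55.3 TPM in M0, and Mknk2 to 32.1 TPM in M2, against 47.9 TPM in M0.

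Transcripts known to respond to ERK were mixed in direction. Of 12 tested, 2 rose and 7 fell, with a median log2 fold change of -0.42, where 20.1% of all tested genes rose and 23.7% fell. Etv1, among the 7, passed the filter only through its M0 level. Etv4, an ETS factor induced by ERK, fell to 5.50 TPM in M2, against 10.2 TPM in M0, and Mcl1 to 139 TPM in M2, against 193 TPM in M0. Phlda1 fell by 0.54 on the log2 scale. The Etv4 log2 fold change was -0.79, and -0.53 on the authors' log2-scale values. Myc rose to 29.8 TPM in M2, against 6.43 TPM in M0, and Etv5, the close relative of Etv4, to 37.7 TPM in M2, against 29.1 TPM in M0. Etv5 did not pass without M0 replicate 3 (limma adjusted p = 0.0570). Among growth factor receptors 2 of 7 tested rose, Mertk (19.8 TPM in M2, 9.67 TPM in M0) and Csf2rb (26.2 TPM in M2, 20.2 TPM in M0), and Csf2ra fell (36.6 TPM in M2, 46.9 TPM in M0), a count near the 43.7% called over all tested genes.

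The atypical dual-specificity phosphatases, small enzymes without the MAP kinase docking domain, included 2 that rose among 8 tested of 15 listed, near the 20.1% of all tested genes that rose. Dusp12 had 28.5 TPM in M2 and 19.9 TPM in M0, and Dusp22 32.8 TPM in M2 and 26.6 TPM in M0. The median log2 fold change of the 8 was 0.05, where that of the chosen set was -0.70. The lists were described by counts and medians, and no difference between lists was tested.

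**Figure D4:**
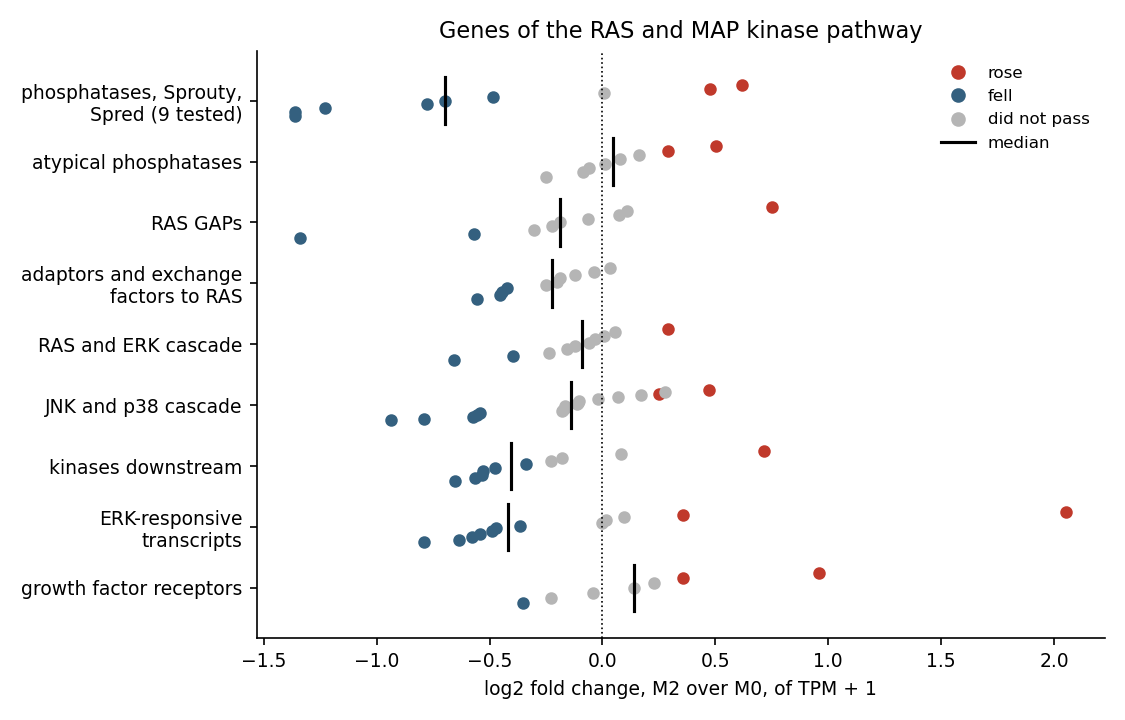
Log2 fold change of M2 over M0 on TPM + 1 (horizontal axis) for each tested gene of the described set (top) and of 8 lists of the pathway, with a point per gene and a line at the list's median. The described set has its median at -0.70, and the list medians lie between -0.42 and 0.14.

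Under every alternative tried here the same 8 genes passed in the same directions and Spred1 did not pass. On the authors' log2-scale values the differences were smaller, -0.72 for Dusp5, 0.36 for Dusp2 and -0.54 for Dusp10, while Spred3 reached -2.20 with limma-voom on recovered reads. In the authors' deposited table the log2 fold changes, positive where M2 is higher, were -1.43 for Dusp1, -1.63 for Dusp5, -1.23 for Dusp6, 0.52 for Dusp4 and 0.80 for Dusp2. That table also gave -0.78 for Dusp16 and -0.85 for Spry1 (adjusted p = 0.186), each on another transcript model than the TPM table. For Dusp5 that table gives the model a length of 1148 bases, against 1809 in the TPM table.

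By the coordinates of the TPM table, on mm10, Dusp1 lies at chr17:26505591-26508472 (minus strand, NM_013642) and Dusp5 at chr19:53529145-53541809 (plus, NM_001085390). Dusp2 is at chr2:127336159-127338377 (plus, NM_010090), Dusp4 at chr8:34807610-34819894 (plus, NM_176933) and Dusp6 at chr10:99263231-99267489 (plus, NM_026268). Dusp16 spans chr6:134715468-134792628 (minus, NM_001048054). Spry2 is at chr14:105891947-105896819 (minus, NM_011897), Spry1 at chr3:37639947-37644599 (plus, NM_001305442), Spred1 at chr2:117121071-117182277 (plus, NM_033524) and Spred2 at chr11:19924442-20022597 (plus, NM_033523). Values of each gene are totals over that model, so promoters, exons and introns were not measured apart.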

How the data were processed

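RNA sequencing of poly(A) RNA gave 3 M2 and 3 M0 libraries, grouped by sample title, each from 200 ng of total RNA. Per the submitters' processing notes, bcl2fastq, STAR 2.7.5a, HOMER 4.11.1, DESeq2 and mm10 were used, with no roles given. The authors deposited TPM values for 25124 genes, with 1 transcript model per gene; the listed values sum to 550163 to 559556 per library. A second table deposited by the authors holds log2-scale values per library (the transform is not named) with log2 fold changes, p-values and adjusted p-values for 24421 genes.

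Genes with at least 1 TPM in at least 3 libraries were fitted with limma 3.58.1 in R 4.3.3 on log2(TPM + 1), by group, with a variance trend and Benjamini-Hochberg adjustment over 11202 genes at 0.05. No table holds counts, so a count model was not the main test. Within a library, TPM times model length fell on whole multiples of 1 step (100.0% of testable values within 0.1 read), which gave the reads quoted, and the library totals in the file headers are 1.18 to 1.20 times those sums. Precision is limited by 3 libraries per group. The SE and interval cover the spread between libraries.

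The 10 genes, the lists and the tests were chosen with earlier results of these data known. The text names all 10 genes, the rest of their families, up to 4 genes per list with the lowest adjusted p, and every gene of a count of 5 or fewer. Nf1, Mapk14, Etv1 and Rps6ka2 were added after their values were seen, Etv1 and Rps6ka2 for how they passed the filter. Alternatives were a pseudocount of 0.1, no filter, median-ratio scaling, limma-voom on recovered reads, the authors' log2-scale values, no variance trend, the replicate number as a block, and each library left out. Python 3.11.15 with pandas 2.3.3, numpy 2.4.6 and matplotlib 3.10.9 prepared tables and figures.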

Additional observations from a re-analysis of the deposited data

How the results depend on the processing

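Over 13 alternatives the 8 called genes of the set passed each time, and the count of called genes over all tested ran from 3556 to 5694 when single libraries were left out. Spred1, which never passed, ranged from -0.067 to 0.081 on the log2 scale when single libraries were left out, with its sign changed without M2 replicate 2 (-0.067) and without M0 replicate 1 (-0.04); the cause was not tested. Taking Dusp6 and Dusp16 together as cytoplasmic gave a log2 ratio of -1.15, against -1.27 for Dusp6 alone, by construction, since Dusp16 fell less. The nuclear sum kept its sign without each library in turn (0.24 to 0.40).

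The labels do not say whether replicate numbers pair the libraries. Same-numbered deviations correlated at -0.03, 0.21 and 0.03, and those of other pairs at -0.20 to 0.17. These values cannot settle pairing, since deviations also followed transcript length. A block on that number called 4870 genes, against 4899, and again 8 of the 9 tested genes of the set and 42 pathway genes. Among the pathway genes refitted under the alternatives, Map2k3, Gab2 and Etv5 lost their call when 1 M0 library was left out. Low reads limit Spry1 and Spry4.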
